A study of Bos taurus with 6 samples.

Results

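CD14, TLR2 and TLR4 are receptors of innate immunity that sense molecules of bacteria. They were examined here as 3 of the 27607 genes in the count table, chosen for this shared function. Earlier results of these data were known when they were chosen. The genes were taken by Ensembl identifier, ENSBTAG00000015032 for CD14, ENSBTAG00000008008 for TLR2 and ENSBTAG00000006240 for TLR4. All of them passed the filter on low counts, which kept 14039 genes. CD14 had already been picked out by the study from these same libraries as a surface receptor that differs between the cell types, so that its comparison below is not independent evidence of a direction. By flow cytometry, the study also reported CD14 protein as selective for FAPs over SCs, a separate measure that was not examined here.

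RNA was sequenced from fibro-adipogenic progenitors (FAPs), the stromal cells of muscle that can form fat, and from satellite cells (SCs), its myogenic stem cells. The muscle was the semitendinosus of Belgian Blue cattle, which over the whole study were of both sexes and between 1 and 7 years old at slaughter. The sex, age and number of the animals behind these libraries are not given in the sources used here. Cells from the muscle were first cultured for 72 h on flasks coated with collagen. CD31-/CD45- cells were then sorted into CD29+/CD56- cells (FAPs) and CD29+/CD56+ cells (SCs). The groups were thus defined by an antigen of SCs, and leukocytes and endothelium were gated out by CD45 and CD31. After sorting, both cell types were grown on collagen for 72 h after plating 2000 cells per cm2, in Ham's F-10 medium with 20% fetal bovine serum and 5 ng/ml bFGF, until lysis. FAPs and SCs gave 3 libraries each, with the letters A, B and C in both, and nothing in the labels says whether a letter stands for an animal or for a culture, so that p-values measure the spread between these libraries, which may be technical.

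CD14 is a protein without a cytoplasmic domain that is anchored in the membrane by lipid and also circulates in soluble form. It takes up bacterial lipopolysaccharide from a carrier protein of serum and hands it to TLR4, which binds it together with its small partner MD-2. TLR2 recognises bacterial lipopeptides as a pair with TLR1 or TLR6, and CD14 can assist there as well. Both Toll-like receptors signal through the adaptor MYD88 to NF-kB and to the transcription of cytokine genes, and TLR4 has a further route through the adaptor TRIF. The genes are best known from monocytes and macrophages, and stromal cells are known to carry them too.

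Library totals lay between 19666738 and 37791193 counts. The 10 most counted genes took between 22.5% and 24.0% of the counts in FAP libraries, and between 7.73% and 8.02% in SC libraries. Levels are therefore given as CPM (counts scaled to a common library size) on library sizes adjusted by edgeR's TMM factors, with CPM on unadjusted library totals beside them. The table gives no gene names, and 0 of its identifiers were matched in the gene table used here. The cell types could therefore not be checked here against their markers, and the other genes of the Toll-like receptor pathway were not analysed. From its RNA sequencing, the study itself reported PDGFRA, PPARG and SCARA5 as higher in FAPs, and PAX7 and NCAM1 as lower.

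Of the receptor genes, TLR4 had the largest fold change between the cell types. It was counted 1283 times in FAPs A, 1211 times in FAPs B and 860 times in FAPs C, against 110, 48 and 97 times in SCs A, B and C. On TMM-adjusted library sizes these counts gave 41.5, 42.6 and 45.1 CPM in FAPs and 3.26, 2.02 and 2.67 CPM in SCs. FAP libraries lay close together and far above each SC library, the lowest of them 12.7-fold above the highest SC library. The means were 43.1 ± 1.80 CPM (SD, n = 3) in FAPs and 2.65 ± 0.623 CPM (SD, n = 3) in SCs, so that SCs held 6.15% of the FAP level of TLR4. The log2 fold change of TLR4, FAPs minus SCs, was 3.99 with a standard error of 0.128, a 15.9-fold difference with a 95% interval from 13.1 to 19.3 (adjusted p = 4.70e-11, from the quasi-likelihood test of edgeR, adjusted by Benjamini-Hochberg over the whole set). Among 14039 tested genes, 323 had a larger log2 fold change towards FAPs than TLR4.

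CD14, the co-receptor that loads TLR4, followed closely. It was counted 967 times in FAPs A, 793 times in FAPs B and 605 times in FAPs C, against 113, 51 and 77 times in SCs A, B and C. These counts of CD14 corresponded to 31.3, 27.9 and 31.7 CPM in FAPs and to 3.35, 2.14 and 2.12 CPM in SCs, on TMM-adjusted library sizes. Again the groups did not overlap, with the lowest FAP library 8.33-fold above the highest SC library. Mean levels of CD14 were 30.3 ± 2.07 CPM (SD, n = 3) in FAPs and 2.54 ± 0.706 CPM (SD, n = 3) in SCs, or 8.38% of the FAP level. The log2 fold change was 3.56 with a standard error of 0.150, an 11.8-fold difference with a 95% interval from 9.42 to 14.8 (adjusted p = 5.71e-10, edgeR's quasi-likelihood test), and 416 tested genes had a larger one.

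TLR2, the receptor for lipopeptides, was higher in FAPs by a smaller factor and was well counted in both cell types. Its counts were 2115, 2068 and 1490 in FAPs A, B and C and 769, 421 and 655 in SCs A, B and C. The corresponding levels of TLR2 were 68.5, 72.8 and 78.1 CPM in FAPs and 22.8, 17.7 and 18.01 CPM in SCs, on TMM-adjusted library sizes. TLR2 had more counts in each SC library than CD14 or TLR4 had there, which makes it the most precisely counted of these genes in SCs, and the groups did not overlap. With means of 73.1 ± 4.81 CPM (SD, n = 3) in FAPs and 19.5 ± 2.87 CPM (SD, n = 3) in SCs, SCs held 26.7% of the FAP level of TLR2. The log2 fold change was 1.90 with a standard error of 0.0997, a 3.73-fold difference with a 95% interval from 3.21 to 4.34 (adjusted p = 4.55e-09, edgeR's quasi-likelihood test), and 1040 tested genes had a larger one. In the RefSeq genes of assembly ARS-UCD2.0, TLR2 overlaps 1 other gene, RNF175, while CD14 and TLR4 overlap 0 others. How reads on overlapping genes were assigned is not given in the sources used here, so that the counts of TLR2 are less certain in this respect.

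**Figure D1:**
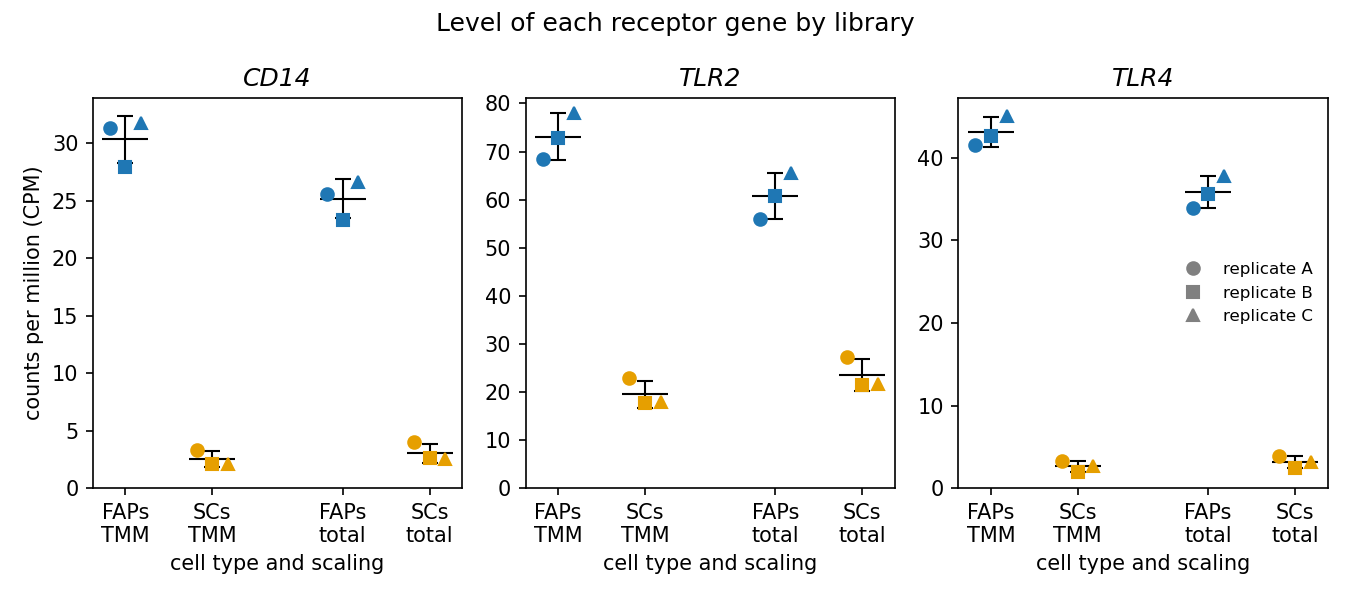
Level of CD14, TLR2 and TLR4 in each library, in CPM on TMM-adjusted library sizes (TMM) and on library totals (total), with a linear axis from 0 for each gene. Symbols mark the replicate letter, horizontal lines the mean and bars the SD (n = 3); FAP libraries (blue) lie above each SC library (orange) for every gene and on both scales.

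At an FDR below 0.05 and an absolute log2 fold change above 1, all 3 receptor genes were called higher in FAPs, where 14.5% of all tested genes were called in that direction and 28.1% in either. Limma-voom called them as well, with log2 fold changes of 4.01 for TLR4, 3.58 for CD14 and 1.90 for TLR2, beside 14.5% of tested genes called higher in FAPs. DESeq2 gave 4.01, 3.58 and 1.91 for the same genes, which it also called, beside 14.6% of tested genes. On TMM-adjusted CPM, 36.5% of tested genes had every FAP library above every SC library, as the receptor genes did. The lower and upper quartiles of the log2 fold change over this set were -0.51 and 0.49, with a median of -0.03, and 97.7% of tested genes lay below TLR4, 97.0% below CD14 and 92.6% below TLR2. In these bulk cultures, a difference in the number of cells that carry a transcript and a difference in its amount per cell cannot be told apart.

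**Figure D2:**
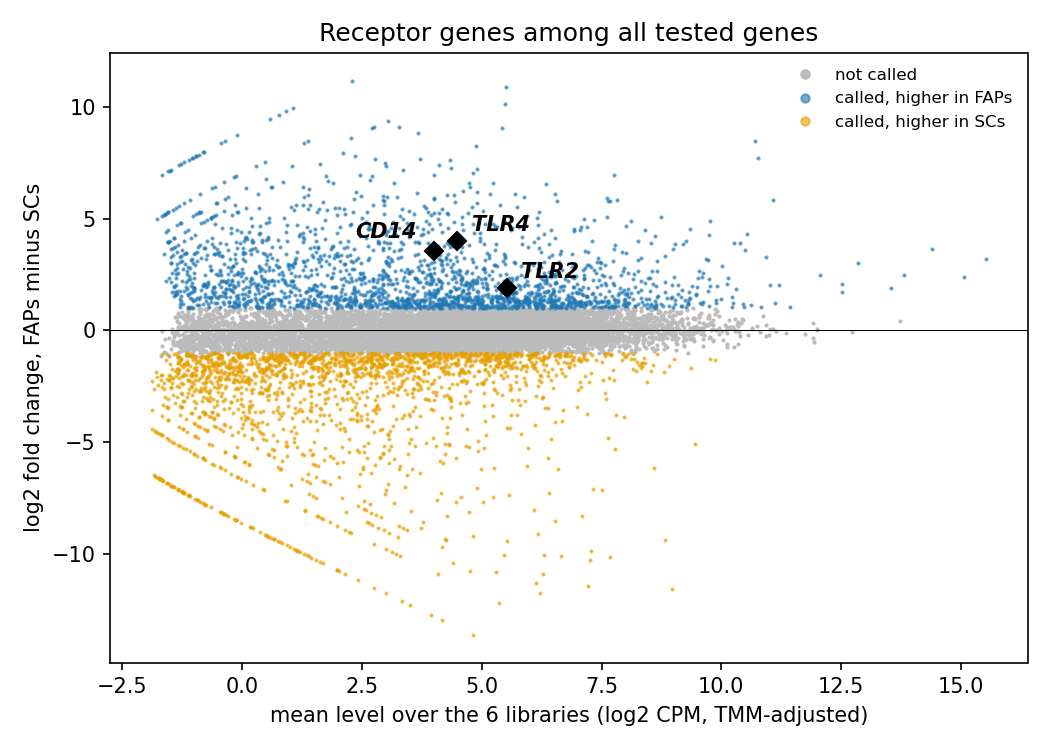
Each point is one of the 14039 tested genes, with its mean level over the 6 libraries (log2 CPM, TMM-adjusted) on the horizontal axis and its log2 fold change, FAPs minus SCs, on the vertical axis. The receptor genes (black diamonds) lie in the middle of the range of levels, TLR4 at 3.99 and CD14 at 3.56 side by side, and TLR2 lower at 1.90.

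Scaling by library totals lowered each of these differences and removed none. On that scale TLR4 was at 35.8 ± 1.94 CPM (SD, n = 3) in FAPs and 3.19 ± 0.731 CPM (SD, n = 3) in SCs, and its log2 fold change was 3.46. CD14 was at 25.2 ± 1.69 CPM in FAPs and 3.05 ± 0.828 CPM in SCs (SD, n = 3), with a log2 fold change of 3.03. TLR2 was at 60.8 ± 4.78 CPM in FAPs and 23.5 ± 3.29 CPM in SCs (SD, n = 3), with a log2 fold change of 1.37. The ratio of the TLR2 means thereby went from 3.75 with TMM factors to 2.59 with library totals, and the lowest FAP library remained 2.05-fold above the highest SC library. All 3 genes were called with library totals as well, against 9.16% of tested genes called higher in FAPs and 18.6% with every FAP library above every SC library on that scale. This scaling brought the median over the whole set to -0.57. A change of library size shifts all genes by nearly the same amount, so that the distance from this median, 4.03 on the log2 scale for TLR4, 3.60 for CD14 and 1.94 for TLR2, is the same for both by construction.

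The rank of a gene within its own library needs no scaling factor. In FAP libraries, between 68.7% and 70.4% of tested genes had a lower count than TLR4, and in SC libraries between 17.4% and 21.5% did. CD14 ranked above 59.6% to 62.6% of tested genes in FAPs and above 18.1% to 21.9% in SCs. TLR2 ranked above 79.5% to 81.9% in FAPs and above 49.4% to 55.3% in SCs. Each of these genes ranked higher in every FAP library than in every SC library, as did 34.3% of all tested genes. Ranks of different genes also depend on transcript length, which was not available here, so that they are compared between cell types and not between genes.

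**Figure D3:**
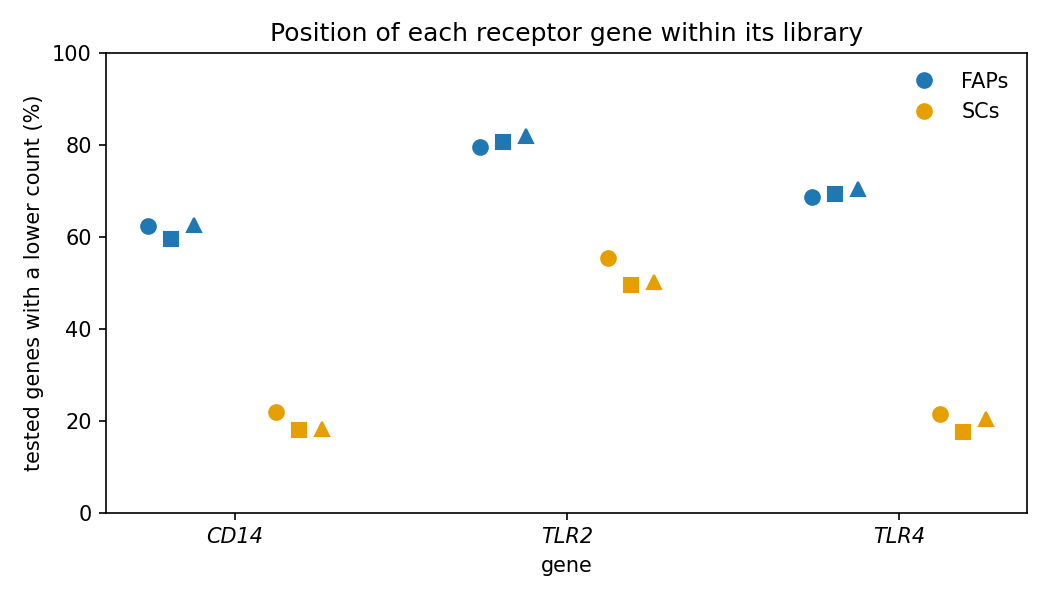
Percentage of the tested genes with a lower count than CD14, TLR2 or TLR4 in the same library, for FAPs (blue) and SCs (orange), with symbols for replicates A (circle), B (square) and C (triangle). All FAP libraries rank each gene higher than the SC libraries do, which holds for 34.3% of all tested genes. TLR2 is at 79.5% to 81.9% in FAPs against 49.4% to 55.3% in SCs.

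Ratios between the receptor genes within a library likewise do not depend on scaling, and they were used to ask whether the genes differed by the same factor. TLR2 had 1.65, 1.71 and 1.73 counts for each count of TLR4 in FAPs A, B and C, and 6.99, 8.77 and 6.75 in SCs A, B and C. The log2 ratio of TLR2 to TLR4 was 0.76 ± 0.04 (SD, n = 3) in FAPs and 2.89 ± 0.20 (SD, n = 3) in SCs, a difference of -2.13 that is far larger than the spread between libraries (two-sided p = 0.1 in an exact permutation test, which cannot go lower with 3 libraries against 3). SC libraries therefore had relatively more TLR2 counts for each TLR4 count than FAP libraries, by a factor of 4.37. The overlap of TLR2 with RNF175 leaves its counts, and so its ratios, less certain as amounts of transcript.

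CD14 had 0.457, 0.383 and 0.406 counts for each count of TLR2 in FAPs A, B and C, and 0.147, 0.121 and 0.118 in SCs A, B and C. The log2 ratio of CD14 to TLR2 was -1.27 ± 0.13 (SD, n = 3) in FAPs and -2.96 ± 0.17 (SD, n = 3) in SCs, a difference of 1.69 with no overlap (two-sided p = 0.1, exact permutation test). CD14 thus went with TLR4 rather than with TLR2 in the size of its difference in counts, with the same limit on TLR2.

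Between CD14 and its partner TLR4, the ratio differed much less. There were 0.754, 0.655 and 0.703 counts of CD14 for each count of TLR4 in FAPs A, B and C, and 1.03, 1.06 and 0.794 in SCs A, B and C. The log2 ratio of CD14 to TLR4 was -0.51 ± 0.10 (SD, n = 3) in FAPs and -0.07 ± 0.23 (SD, n = 3) in SCs, a difference of -0.44, or 1.36-fold (two-sided p = 0.1, exact permutation test). The libraries did not overlap in this ratio, but the counting intervals of SC and FAP libraries overlapped in part. Of the counts on CD14 and TLR4 together, CD14 took 43.0% in FAPs A (95% Wilson interval from 40.9% to 45.0%), 39.6% in FAPs B (37.5% to 41.7%) and 41.3% in FAPs C (38.8% to 43.8%). It took 50.7% in SCs A (44.2% to 57.2%), 51.5% in SCs B (41.8% to 61.1%) and 44.3% in SCs C (37.1% to 51.7%). The intervals of all SC libraries overlapped that of FAPs A. That of SCs A lay above those of FAPs B and FAPs C, and that of SCs B just above that of FAPs B. The interval of SCs C overlapped that of every FAP library. Such intervals of single libraries are not a test between the groups. With 3 libraries against 3, a difference between the fold changes of CD14 and TLR4 is not shown firmly. The 3 ratios were tested as one family, with a Benjamini-Hochberg adjusted p of 0.1 for each, and each ratio follows from the other two.

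**Figure D4:**
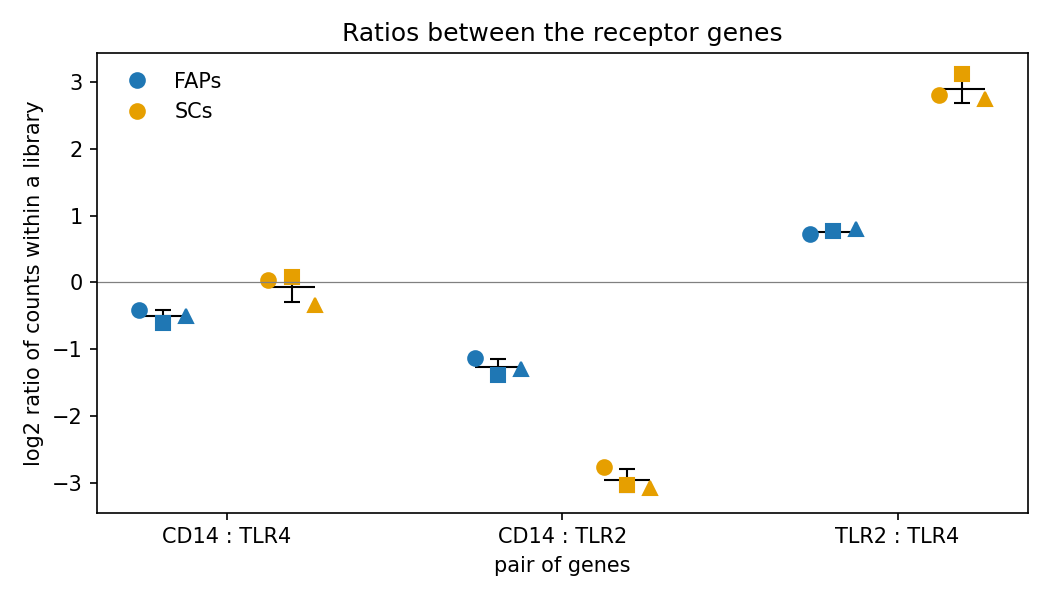
Log2 ratio of the counts of each pair of receptor genes within a library, for FAPs (blue) and SCs (orange), with symbols for replicates A (circle), B (square) and C (triangle), lines for the mean and bars for the SD (n = 3). The ratio of CD14 to TLR4 differs by -0.44 (FAPs minus SCs), that of CD14 to TLR2 by 1.69 and that of TLR2 to TLR4 by -2.13.

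The spread between replicates was wider in SCs for each receptor gene, a difference that was not tested. The coefficient of variation of TMM-adjusted CPM was 4.18% in FAPs and 23.5% in SCs for TLR4, 6.84% and 27.8% for CD14, and 6.57% and 14.7% for TLR2. Counting error alone gives a coefficient of variation between 9.53% and 14.4% in single SC libraries for TLR4, between 9.41% and 14.0% for CD14, and between 3.61% and 4.87% for TLR2. The spread between SC libraries was larger than this counting error for each gene.

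SCs A had the highest level of each receptor gene among the SC libraries. For TLR2 its 95% Poisson interval, from 21.2 to 24.5 CPM, lay above those of SCs B (16.0 to 19.5 CPM) and SCs C (16.7 to 19.4 CPM). For CD14 the interval of SCs A, from 2.76 to 4.03 CPM, lay above that of SCs C (1.67 to 2.65 CPM) and overlapped that of SCs B (1.60 to 2.82 CPM). For TLR4 it reached from 2.68 to 3.93 CPM and overlapped that of SCs C (2.16 to 3.25 CPM), while that of SCs B (1.49 to 2.68 CPM) ended where it began. Without SCs A the log2 fold changes were 4.16 for TLR4, 3.82 for CD14 and 2.03 for TLR2, each larger than with all libraries.

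Among FAP libraries, FAPs C had the highest level of each receptor gene, by small margins. TLR2 ran from 68.5 CPM in FAPs A to 78.1 CPM in FAPs C, with 95% Poisson intervals of 65.6 to 71.4 CPM and 74.1 to 82.1 CPM that do not overlap. For TLR4, the intervals of FAPs A (39.3 to 43.9 CPM) and FAPs C (42.1 to 48.2 CPM) overlapped. CD14 was lowest in FAPs B, at 27.9 CPM, where its interval, from 26.0 to 29.9 CPM, overlapped those of both other libraries.

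**Figure D5:**
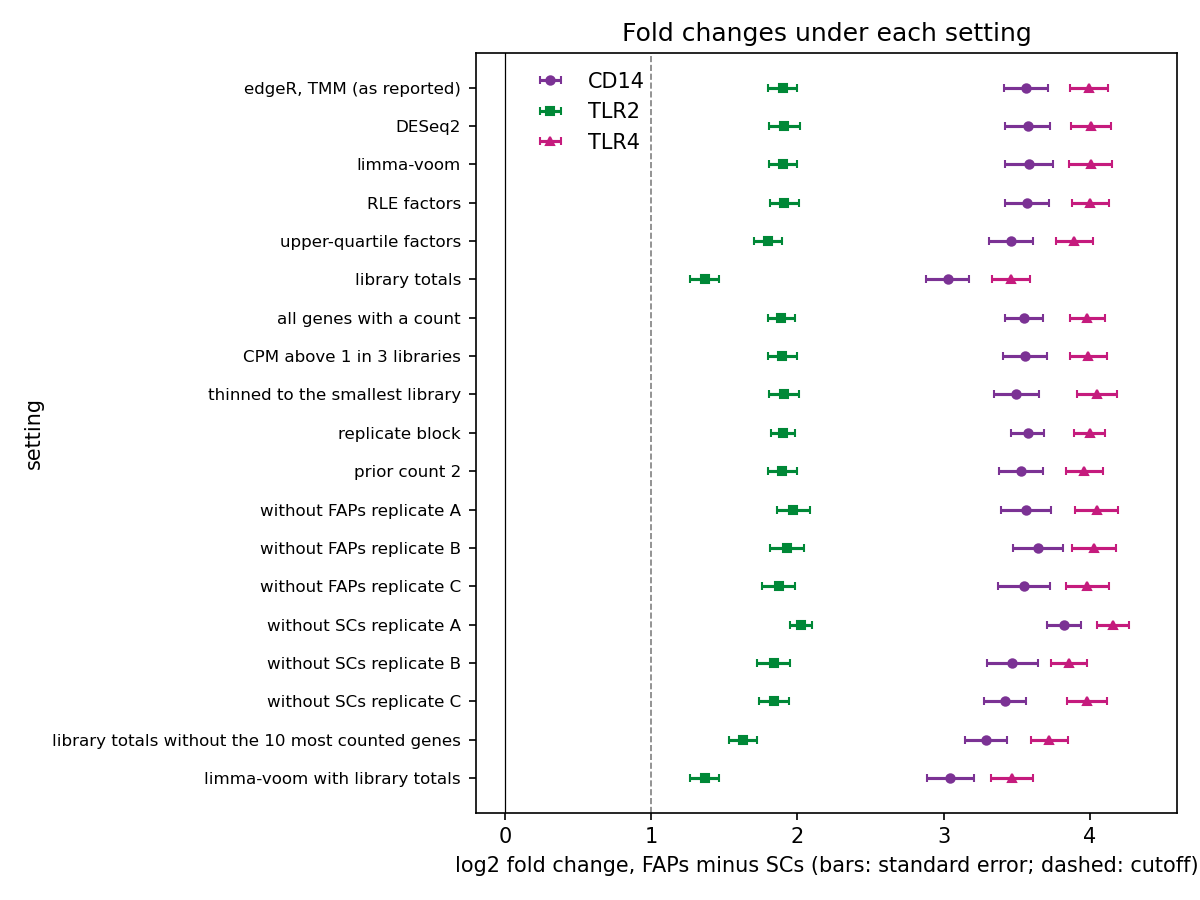
Log2 fold change, FAPs minus SCs, of CD14, TLR2 and TLR4 under each setting of the processing, with bars for the standard error and a dashed line at the cutoff of 1. Every value lies to the right of the cutoff, and the lowest are those on library totals, at 3.46 for TLR4, 3.03 for CD14 and 1.37 for TLR2.

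The genes most like each receptor gene were sought by the root mean square difference of log2 CPM over the 6 libraries, after each gene was centred on its own mean. Closest to TLR4 was ENSBTAG00000021485, with a root mean square difference of 0.0643, at 13.8 ± 0.600 CPM in FAPs and 0.907 ± 0.192 CPM in SCs (SD, n = 3). Closest to TLR2 was ENSBTAG00000013863, with a root mean square difference of 0.0541, at 161 ± 9.84 CPM in FAPs and 45.7 ± 7.19 CPM in SCs (SD, n = 3). The files do not pair these identifiers with names. Among all tested genes, TLR4 ranked 83rd in likeness to CD14, with a root mean square difference of 0.263, and TLR2 ranked 807th, with 0.853. These likenesses rest mainly on the single difference between the cell types, which many genes share.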

How the data were processed

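Stranded poly(A) libraries were sequenced as single-end reads of 75 bp, and the authors aligned them with STAR 2.7 to bosTau9 and counted them on Ensembl genes by featureCounts. Raw counts were deposited, with 0 further columns of per-sample values. The handling of strand, multi-mapping reads and overlapping genes is not given in the sources used here. The symbols of the 3 identifiers were set together with the choice of genes. The gene table (37063 genes) holds each symbol once but matched 0 identifiers, so that symbols, pathway lists, cell type markers and RPKM could not be taken from it.

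Counts were filtered with filterByExpr (minimum count 10), scaled with TMM factors and tested in R 4.3.3 with edgeR 4.0.16 (glmQLFit and glmQLFTest, cell type as the only term). Genes were called at an FDR below 0.05 and an absolute log2 fold change above 1, the cutoffs of the study, which used limma. Fold intervals are at 95% confidence from the quasi-likelihood standard error. Ratios used log2 of counts plus 0.5 and an exact permutation test over libraries. Poisson and Wilson intervals cover counting error only, since PCR reads without molecular identifiers are not independent molecules. Limma 3.58.1 (voom), DESeq2 1.42.0, other scaling, filters, thinning, the replicate block and each library left out were alternatives. The fitting steps were tested on simulated data in which few genes changed, as many up as down. That simulation does not bear on the choice between TMM factors and library totals. The printed genes were the 3 receptors and, by the rule for unnamed identifiers, at most 2 nearest genes that were higher in FAPs. The genes and lists were chosen with earlier results of these data known. Replicate pairs of one cell type differed by more than counting error (chi-square per degree of freedom from 4.04 to 27.4), so none was counted as a duplicate.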

Additional observations from a re-analysis of the deposited data

How the results depend on the processing

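TLR4, CD14 and TLR2 kept their direction and were called in all 19 alternatives run for each. Their log2 fold changes ran from 3.46 to 4.16 for TLR4, from 3.03 to 3.82 for CD14 and from 1.37 to 2.03 for TLR2, with adjusted p of at most 3.06e-08, 2.09e-07 and 8.92e-07. With each library left out they ran from 3.86 to 4.16, from 3.42 to 3.82 and from 1.84 to 2.03. The differences of the ratios kept their sign in all 10 alternatives, from -2.20 to -2.01 for TLR2 to TLR4, from 1.61 to 1.79 for CD14 to TLR2 and from -0.57 to -0.36 for CD14 to TLR4, where a p below 0.1 cannot be reached. The background moved with the scaling. With library totals, calls towards FAPs numbered 1286 and calls towards SCs 3794, a FAP share of 25.3%, where TMM factors gave 2035 and 1908, a share of 51.6%. Other settings were added after seeing the data. Limma-voom with library totals gave 1290 and 3770 genes, and library totals without the 10 most counted genes gave a share of 38.3%. The cause was not tested.

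The deviations of same-lettered libraries from their group means were correlated across genes at 0.129 (A), 0.000841 (B) and 0.111 (C). The letters were not taken as pairs in the main fit, but such weak correlations cannot exclude a shared animal or batch. With the replicate block the log2 fold changes were 3.999 for TLR4, 3.58 for CD14 and 1.90 for TLR2, 3942 genes were called against 3943, and no call of these genes changed. Their standard errors were 0.107, 0.115 and 0.0811 with the block, against 0.128, 0.150 and 0.0997 without it. Nothing could be run for pathway genes, whose identifiers are unknown here. In the smallest SC library, SCs B, TLR4 rested on 48 counts and CD14 on 51, which limits the precision of their fold changes and of their ratio.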
